A study of Homo sapiens with 4 samples.

Results

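The subject here is NCAM1 and the enzymes that add sialic acid to it and to other glycans: ST8SIA2 and ST8SIA4, ST8SIA3, ST8SIA1 and ST8SIA5, and ST6GAL1 and ST6GAL2. The 8 genes were chosen by symbol, and every probe set (a group of probes that reads 1 transcript region) annotated to one of them alone was taken, which gave 27 of the 54613 probe sets of the deposited table. The choice was made with results of these arrays known, from the differences between the cell lines and between knockdown and control, so all values below are a description and none was tested. Total RNA was read on 4 one-colour Affymetrix arrays, 1 for each of NCI-H727 DAXX-KD, NCI-H727 control, QGP1 DAXX-KD and QGP1 control. The labels call NCI-H727 a bronchial and QGP1 a pancreatic neuroendocrine tumour line. DAXX-KD cells were electroporated with siRNA against DAXX, the chaperone of histone variant H3.3, and control cells with a universal negative control siRNA, both at a final 50 nM; 2 DAXX siRNAs are named, and whether they were mixed is not given in the sources used here. Nothing in the labels describes a repeated culture, so no difference between arrays has a replicate check.

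Polysialic acid is a long chain of sialic acid residues carried mainly by the neural cell adhesion molecule NCAM1, known as CD56 on natural killer cells and used as a tissue marker of neuroendocrine tumours. The chain is large and charged and weakens adhesion between cells. ST8SIA2 and ST8SIA4 are the polysialyltransferases that build it on NCAM1; their relatives ST8SIA3, ST8SIA1 and ST8SIA5 add shorter sialic acid chains to glycoproteins or gangliosides, and ST6GAL1 and ST6GAL2 cap the ends of glycan branches with a single residue. An array reads the RNA of these genes and not the sugar itself.

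The line names rest on the sample titles, and 3 of the 4 markers fixed for bronchial neuroendocrine cells were 2-fold or more higher on the QGP1-labelled arrays. NKX2-1, the transcription factor of lung and thyroid, read 3.23 and 3.35 (log2) on the NCI-H727-labelled DAXX-KD and control arrays, against 8.38 and 8.77 on the QGP1-labelled ones. The lung neuroendocrine peptide GRP read 4.12 and 5.37 against 11.76 and 12.80, and FOXA1 read 7.11 and 7.18 against 8.34 and 8.54, while CALCA differed by -0.18 between the controls. Among islet factors NKX2-2 read 9.25 and 9.17 on the NCI-H727-labelled arrays, against 5.93 and 4.80, PAX6 and ISL1 differed the other way, by -1.51 and -0.79 between controls (NCI-H727-labelled minus QGP1-labelled), and PDX1 read 5.23 to 5.54 on all 4 arrays. GEO's source field also names QGP1 for both NCI-H727 samples, and the description of all 4 samples speaks of ALDH high QGP1 cells, a selection the titles do not mention. A swap of the line names cannot be told apart from lines that express these genes so, which is why the arrays are called NCI-H727-labelled and QGP1-labelled and every direction between lines below rests on the titles.

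Neuroendocrine and epithelial markers were read in both lines. All 7 neuroendocrine markers measured and all 4 epithelial markers lay over the filter level on every array. The chromogranin CHGA read 11.14 to 12.27. SYP, the lowest of the 7, read 5.89 to 6.32, a range that overlaps that of GFAP and SOX10 below. Natural killer and other leukocyte markers, of interest because such cells carry NCAM1, read between 3.0 and 5.37 on all arrays, with PTPRC, which leukocytes carry, at 3.0 to 3.68. Of the 5 leukocyte markers 2 or 3 lay slightly over the filter level on each array, so that level is not a detection limit. Of the 5 fibroblast markers 2 lay over it on each array, COL1A1 highest at 7.25 to 7.66. Of the neural and glial markers MBP read 10.41 and 10.71 on the NCI-H727-labelled DAXX-KD and control arrays, against 7.49 on both QGP1-labelled ones, and GFAP and SOX10 read 5.64 to 6.06. What part other cells have in the results was not tested. DAXX read 6.14 on the NCI-H727-labelled DAXX-KD array against 7.35 on its control, and 6.56 on the QGP1-labelled DAXX-KD array against 8.52. A second DAXX probe set read 6.19 against 7.02 and 6.03 against 8.18, so the targeted RNA was lower in both lines. Across the 14648 genes past the filter, arrays of 1 line correlated at 0.988 and 0.993 and arrays of different lines at 0.812 to 0.829.

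Values are the authors' RMA expression on the log2 scale, and a probe set was called dim where its mean over the 4 arrays lay under 4.85, a level that 40% of the table's probe sets did not reach. RMA compresses differences under that level. A linear fold is therefore given only where both arrays lay over it, and where 1 array did, the brighter value over the level is given as a lower bound ("at least"). Of the 27 probe sets 15 passed, from 6 genes; both probe sets of ST8SIA2 and both of ST8SIA1 did not. ST8SIA3 and ST6GAL2 passed through the arrays of 1 line, so a large difference between lines was built into their passing. In bulk RNA, fewer cells expressing a gene and less RNA per cell cannot be told apart.

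Promoter windows of the genes with the largest knockdown difference and the largest differences between lines are shown. Whether these starts are used in either line was not measured. RefSeq's table (GRCh38.p14) held 8 start windows of 300 bases, from 250 before to 50 after a start, for 5 of the 8 genes. Capitals mark the CCAAT box (CCAAT or ATTGG) and the GC box (GGGCGG or CCGCCC), searched on both strands with no overlap between the 2 motifs in the windows shown.
ST8SIA4, chr5:100903233-100903532, minus strand: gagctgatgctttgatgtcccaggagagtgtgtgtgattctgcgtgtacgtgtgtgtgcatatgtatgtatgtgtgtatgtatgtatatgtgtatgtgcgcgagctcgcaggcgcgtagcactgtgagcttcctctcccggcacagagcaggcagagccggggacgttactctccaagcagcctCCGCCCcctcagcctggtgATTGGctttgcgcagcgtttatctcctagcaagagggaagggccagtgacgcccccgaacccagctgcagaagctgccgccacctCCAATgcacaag
ST8SIA3, chr18:57352307-57352606, plus strand: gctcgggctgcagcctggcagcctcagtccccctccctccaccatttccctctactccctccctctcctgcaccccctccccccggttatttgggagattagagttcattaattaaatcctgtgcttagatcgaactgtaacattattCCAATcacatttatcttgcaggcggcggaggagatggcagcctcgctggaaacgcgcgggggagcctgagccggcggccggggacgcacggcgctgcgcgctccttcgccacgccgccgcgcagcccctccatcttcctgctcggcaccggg
ST6GAL2, chr2:106887060-106887359, minus strand: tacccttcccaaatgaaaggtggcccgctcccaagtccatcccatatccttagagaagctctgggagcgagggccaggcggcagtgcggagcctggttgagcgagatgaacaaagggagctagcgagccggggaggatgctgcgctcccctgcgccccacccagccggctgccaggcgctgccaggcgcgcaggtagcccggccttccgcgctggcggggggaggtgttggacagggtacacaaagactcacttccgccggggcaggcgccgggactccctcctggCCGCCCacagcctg
The ST8SIA4 window held 2 CCAAT boxes, 1 GC box and 16 CG dinucleotides at 57.3% G and C, close to the median window of the table (14 CG dinucleotides, 58.7%). The ST8SIA3 window held 1 CCAAT box, no GC box and 24 CG dinucleotides. The ST6GAL2 window, 1 of 4 for that gene and the farthest upstream, held no CCAAT box, 1 GC box and 22 CG dinucleotides. The 3 other ST6GAL2 windows held 29 to 37 CG dinucleotides and 0, 0 and 3 GC boxes. Of 35116 windows of this length 34.6% held a CCAAT box and 45.0% a GC box, so neither marks these genes out, and nothing was measured at these sites.

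**Figure D1:**
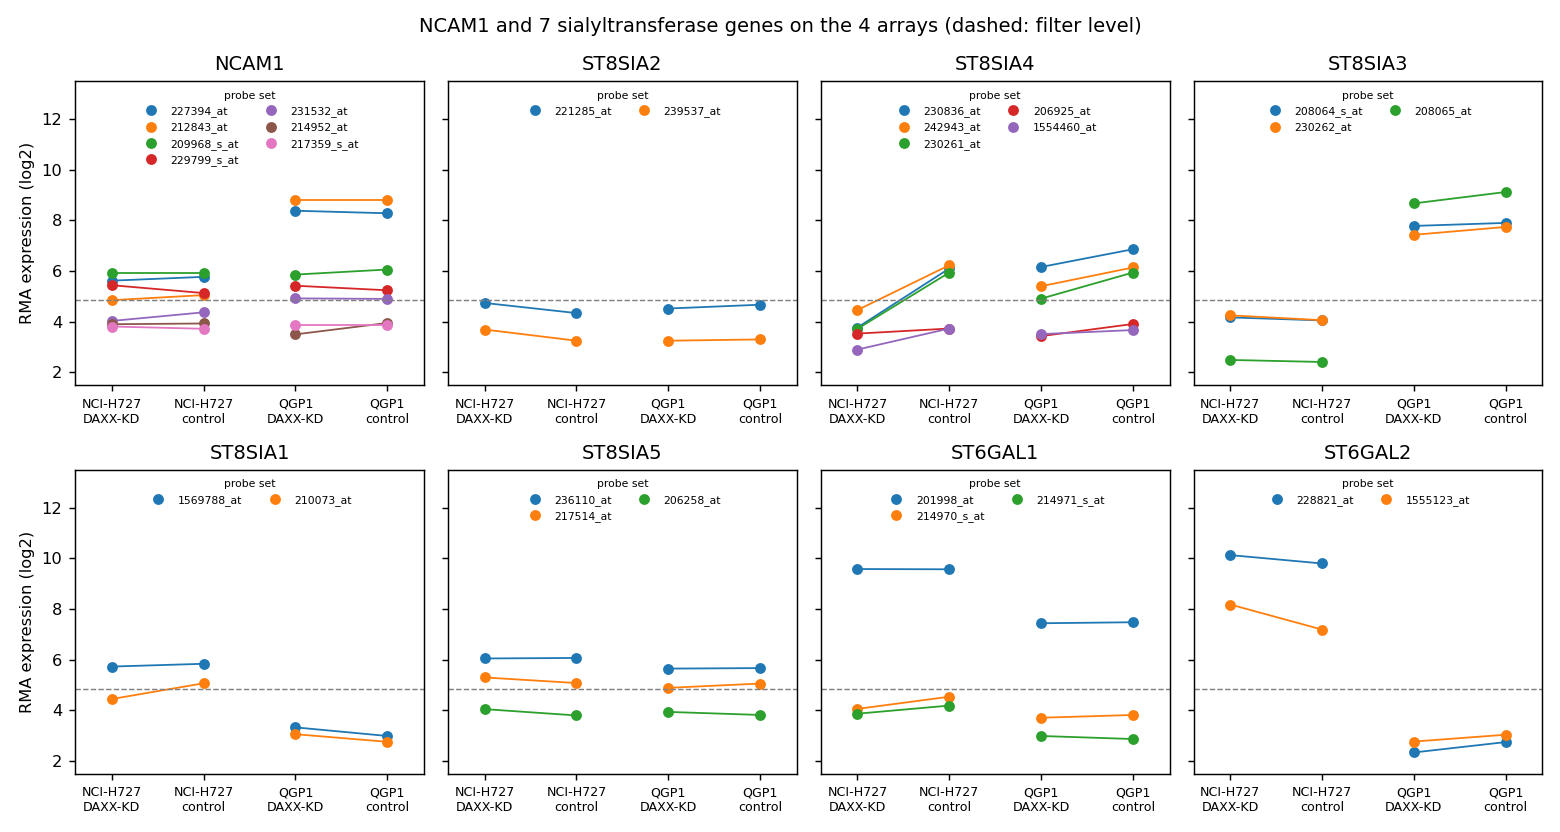
RMA expression (log2, vertical axis) of every probe set of the 8 genes on the NCI-H727 DAXX-KD, NCI-H727 control, QGP1 DAXX-KD and QGP1 control arrays as titled; each colour is 1 probe set, lines join the arrays of 1 line, and the dashed line is the filter level of 4.85. ST8SIA4 is lower on both DAXX-KD arrays, 2 of the 7 NCAM1 probe sets and all 3 of ST8SIA3 are far higher on the QGP1-labelled arrays, and ST6GAL1, ST6GAL2 and ST8SIA1 are higher on the NCI-H727-labelled ones.

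NCAM1, the carrier, was high in the QGP1-labelled line, low in the NCI-H727-labelled line, and close between knockdown and control. Its brightest probe set by mean, 227394_at, read 5.62 on the NCI-H727-labelled DAXX-KD array and 5.77 on its control, against 8.38 on the QGP1-labelled DAXX-KD array and 8.28 on its control. At this probe set NCAM1 was 5.69-fold lower in the NCI-H727-labelled line between controls and 6.80-fold lower between DAXX-KD arrays. A second probe set, 212843_at, read 4.85 and 5.05 in the NCI-H727-labelled DAXX-KD and control arrays, against 8.80 on both QGP1-labelled arrays, a 13.4-fold lower level between controls.

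The other 5 NCAM1 probe sets did not show a gap of this size between lines. 209968_s_at read 5.94 on both NCI-H727-labelled arrays, against 5.86 and 6.06 on the QGP1-labelled DAXX-KD and control arrays. 229799_s_at differed by -0.12 between controls (log2, NCI-H727-labelled minus QGP1-labelled). The 3 dim probe sets differed by -0.53 to -0.02. The line difference of NCAM1 thus rests on 2 of 7 probe sets, and averaging all 7 gives -1.03 in place of -2.51. Which NCAM1 transcripts each probe set reads is not given in the sources used here.

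Knockdown differences of NCAM1 were small and of mixed sign. The representative probe set differed by -0.15 in the NCI-H727-labelled line and 0.10 in the QGP1-labelled line (log2, DAXX-KD minus control), inside the central 95% of genes of each line, which spanned -0.77 to 0.52 and -0.47 to 0.52. Of its 7 probe sets 4 were lower and 3 higher on the NCI-H727-labelled DAXX-KD array.

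ST8SIA4, the main polysialyltransferase of the adult brain, was lower on the DAXX-KD array of both lines. Its representative probe set 230836_at read 3.77 on the NCI-H727-labelled DAXX-KD array, against 6.10 on its control, and 6.16 on the QGP1-labelled DAXX-KD array, against 6.86 on its control. The NCI-H727-labelled DAXX-KD array stood lowest of the 4 and the only one under the filter level, and it was at least 2.37-fold below its control. In the QGP1-labelled line the level was 1.63-fold lower.

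2 further ST8SIA4 probe sets past the filter gave the same picture. 242943_at read 4.46 against 6.23 in the NCI-H727-labelled line, at least 2.59-fold lower, and 5.40 against 6.14 in the QGP1-labelled line, 1.67-fold lower. 230261_at read 3.72 against 5.94, at least 2.13-fold lower, and 4.91 against 5.94, 2.05-fold lower. The dim probe sets 206925_at and 1554460_at read 2.90 to 3.91 on all arrays and differed by -0.20 and -0.83 in the NCI-H727-labelled line and by -0.49 and -0.17 in the QGP1-labelled line. All 5 were lower in DAXX-KD in both lines, though probe sets of 1 gene on the same arrays are not replicates.

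Set among all genes, the ST8SIA4 difference lay below the central 95% of genes in both lines. It was -2.33 in the NCI-H727-labelled line, where that range was -0.77 to 0.52. In the QGP1-labelled line it was -0.70, with a range of -0.47 to 0.52. Of the 6 genes past the filter ST8SIA4 was the 1 past 2-fold in the NCI-H727-labelled line, where 1.5% of 14648 genes were, and 0 were past 2-fold in the QGP1-labelled line, where 0.492% were. With the probe sets of each gene averaged, or with a filter at the 60th percentile, ST8SIA4 did not pass the filter and the NCI-H727-labelled count was 0. At 1.5-fold it was the 1 member in the QGP1-labelled line too, where 3.07% of genes were. It ranked 8th from the lowest in the NCI-H727-labelled line and 117th in the QGP1-labelled line. Of 3217 genes with at least 3 probe sets past the filter, 8 had all of them 2-fold or more lower in the NCI-H727-labelled line, ST8SIA4 among them. ST8SIA4 was one of the genes these comparisons had already brought up, so nothing is read from its place. The SD of the difference among probe sets of a gene was 0.275 in the NCI-H727-labelled line and 0.202 in the QGP1-labelled line, a yardstick for the array and not for repeated cultures.

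The knockdown difference of ST8SIA4 in the NCI-H727-labelled line exceeded that in the QGP1-labelled line by -1.62 (log2). The size rests on a DAXX-KD value under the filter level, and it was -0.54 with values floored at that level and -0.84 with its probe sets averaged. The 2 other probe sets past the filter gave -1.02 and -1.18. DAXX itself had the smaller difference there, -1.21 in the NCI-H727-labelled line and -1.96 in the QGP1-labelled line. Its second probe set differed by -0.83 and -2.14. With 1 array per condition the difference between the lines was not tested.

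Between the controls ST8SIA4 was close, with 230836_at at 6.10 in the NCI-H727-labelled line against 6.86 in the QGP1-labelled line (1.70-fold lower) and the 2 other probe sets past the filter differing by 0.08 and 0.00. Between DAXX-KD arrays the same 3 probe sets were lower in the NCI-H727-labelled line, by -2.39, -0.94 and -1.18. These comparisons use the same arrays as the knockdown differences.

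ST8SIA2, the polysialyltransferase of embryonic and early postnatal brain, was dim everywhere. Its probe set 221285_at read 4.74 and 4.34 on the NCI-H727-labelled DAXX-KD and control arrays, against 4.52 and 4.67 on the QGP1-labelled ones. The second, 239537_at, read 3.69 and 3.25 against 3.25 and 3.30. No array reached the filter level at either probe set, so their differences of 0.40 and 0.44 in the NCI-H727-labelled line and -0.15 and -0.05 in the QGP1-labelled line have no fold. No fold change of ST8SIA2 is read from values this dim.

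**Figure D2:**
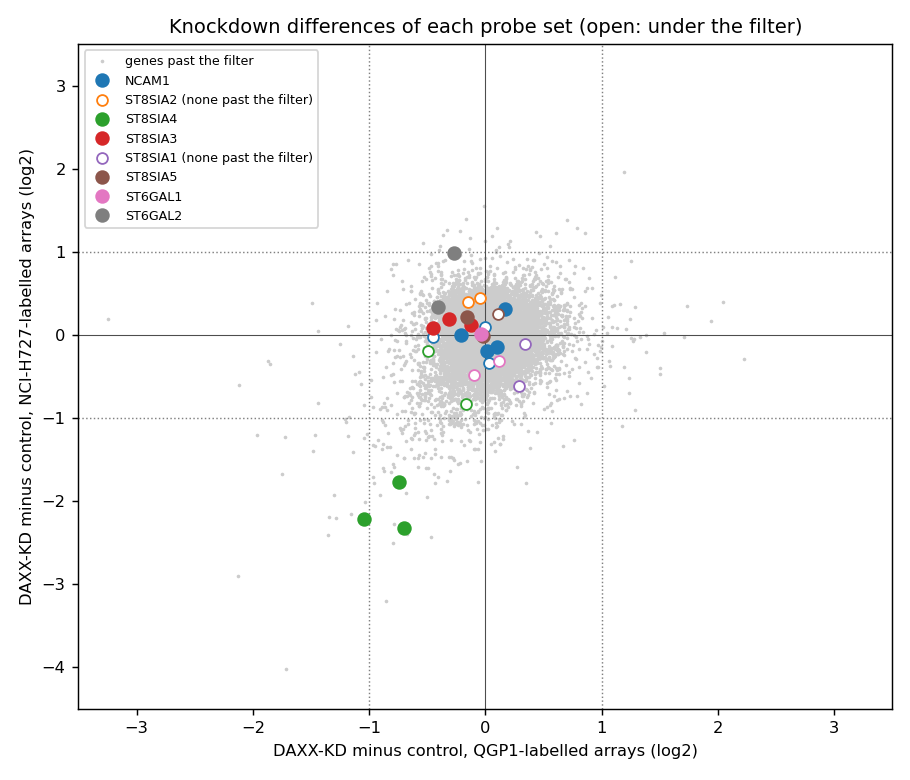
DAXX-KD minus control (log2) in the QGP1-labelled line on the horizontal axis and in the NCI-H727-labelled line on the vertical axis, for every probe set of the 8 genes (coloured, open where the mean is under the filter level) and for the 14648 genes past the filter (grey); dotted lines mark 2-fold. The 3 filled ST8SIA4 points lie at -1.77 to -2.33 in the NCI-H727-labelled line and -0.70 to -1.04 in the QGP1-labelled line, apart from the other members, of which ST6GAL2 is the highest on the vertical axis at 0.98.

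ST8SIA3, a brain-enriched enzyme that adds short sialic acid chains to glycoproteins, was read in the QGP1-labelled line and dim in the other. 208064_s_at read 4.17 on the NCI-H727-labelled DAXX-KD array and 4.05 on its control, against 7.78 and 7.90 on the QGP1-labelled DAXX-KD and control arrays. 208065_at gave the widest gap, 2.49 and 2.41 against 8.67 and 9.12. At its 3 probe sets the level between controls was at least 8.25-fold, 7.40-fold and 19.3-fold lower in the NCI-H727-labelled line.

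In the QGP1-labelled line, where it was read, ST8SIA3 was slightly lower on the DAXX-KD array at all 3 probe sets. The differences were -0.12, -0.31 and -0.45, folds of 1.09 to 1.37, inside the central 95% of genes. In the NCI-H727-labelled line the values lay under the filter level on both arrays.

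The ganglioside enzymes behaved differently from each other. ST8SIA1, the GD3 synthase, read 5.73 and 5.84 at 1569788_at on the NCI-H727-labelled DAXX-KD and control arrays, against 3.33 and 2.99 on the QGP1-labelled ones. It was at least 1.98-fold higher in the NCI-H727-labelled line between controls. The second probe set, 210073_at, read 4.45 and 5.07 against 3.06 and 2.76. The means of both probe sets lay under the filter level. Knockdown differences of ST8SIA1 were -0.11 and -0.61 in the NCI-H727-labelled line and 0.34 and 0.29 in the QGP1-labelled line, where all values were dim.

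ST8SIA5, which adds sialic acid to complex gangliosides in brain, was the most even of the members past the filter. 236110_at read 6.05 and 6.07 on the NCI-H727-labelled DAXX-KD and control arrays, against 5.65 and 5.67 on the QGP1-labelled ones. The knockdown difference was -0.02 in both lines, and the lines differed by 1.32-fold. Its other probe sets had knockdown differences of 0.22 and 0.25 in the NCI-H727-labelled line and -0.16 and 0.11 in the QGP1-labelled line.

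ST6GAL1, the broadly expressed enzyme that caps N-glycans, was higher in the NCI-H727-labelled line. 201998_at read 9.58 and 9.57 on the NCI-H727-labelled DAXX-KD and control arrays, against 7.44 and 7.48 on the QGP1-labelled ones. ST6GAL1 was 4.25-fold higher there between controls and 4.40-fold higher between DAXX-KD arrays. At this probe set the knockdown difference was 0.01 in the NCI-H727-labelled line and -0.04 in the QGP1-labelled line. The other 2 probe sets were dim on all arrays and also higher in the NCI-H727-labelled control, by 0.72 and 1.32. Their knockdown differences were -0.48 and -0.32 in the NCI-H727-labelled line and -0.10 and 0.12 in the QGP1-labelled line.

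ST6GAL2, its relative with a narrow, brain-centred expression, had the widest difference between lines of all the members. 228821_at read 10.13 and 9.80 on the NCI-H727-labelled DAXX-KD and control arrays, against 2.34 and 2.75 on the QGP1-labelled ones. It was at least 30.7-fold higher between controls and at least 38.7-fold between DAXX-KD arrays. 1555123_at read 8.18 and 7.19 against 2.77 and 3.04, at least 5.07-fold higher between controls.

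Within the NCI-H727-labelled line the ST6GAL2 probe set 1555123_at had the highest knockdown difference of the 27 probe sets, and the gene's 2 probe sets differed in size. It was 1.98-fold higher (0.98 on the log2 scale). The representative 228821_at was 1.26-fold higher (0.33), inside the central 95% of genes, -0.77 to 0.52. That is below the 0.40 and 0.44 of the dim ST8SIA2 probe sets. The SD of 0.275 in that line is of 1 probe set about the mean of its gene, so it does not measure a gap between 2. In the QGP1-labelled line both values were dim.

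**Figure D3:**
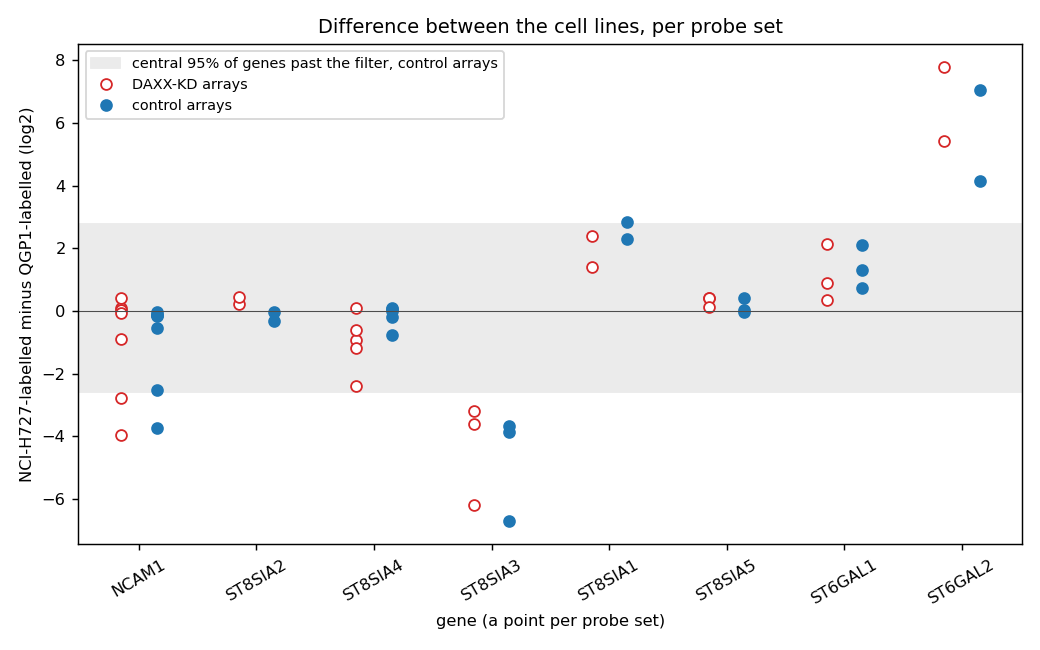
NCI-H727-labelled minus QGP1-labelled expression (log2, vertical axis) of every probe set of the 8 genes (horizontal axis), between DAXX-KD arrays (open) and between control arrays (filled); the grey band, -2.60 to 2.77, holds the central 95% of genes between controls. ST6GAL2 lies above the band and ST8SIA3 below it at every probe set in both comparisons, while ST8SIA2 and ST8SIA5 lie near 0. NCAM1 212843_at is also below it in both, at -3.74 between controls and -3.95 between DAXX-KD arrays. ST8SIA1 1569788_at is above it between controls, at 2.85. Between DAXX-KD arrays the central 95% of genes spanned -2.81 to 2.65. NCAM1 227394_at, at -2.77 there, is below the drawn band but inside that range.

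Counted together, 4 of the 6 genes past the filter differed by 2-fold or more between controls, where 21.9% of genes did, and 5 of 6 between DAXX-KD arrays, where 23.9% did. Over all 8 genes with no filter, the counts were 5 and 6, where 17.5% and 19% of 19775 genes were. Nothing is read from these counts, as the members were proposed with these differences known and some passed the filter through the line where they were high. ST6GAL1 and ST6GAL2 were the 2 higher in the NCI-H727-labelled line and NCAM1 and ST8SIA3 the 2 lower between controls, with ST8SIA4 added to the lower ones between DAXX-KD arrays. The 2 comparisons share no array.

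Related genes were set beside the members on 8 lists: other sialyltransferases, sialic acid supply, sialidases, partners of NCAM1, other polysialic acid carriers, HNK-1 epitope enzymes, ganglioside core synthesis, and enzymes of N-glycan acceptors with proteases of ST6GAL1. Of these 62 genes 51 passed the filter. In the NCI-H727-labelled line 2 were lower and 0 higher past 2-fold, where 1.32% and 0.177% of all genes were, and in the QGP1-labelled line 0 were past 2-fold, where 0.492% were. At these shares such counts are no result about the lists. Their median knockdown difference was -0.02 in both lines, against 0.02 over all genes. All 5 genes that make and transport the sugar donor (GNE, NANS, NANP, CMAS and SLC35A1) passed, with differences of -0.29 to 0.00 in the NCI-H727-labelled line and -0.21 to 0.19 in the QGP1-labelled line. The 3 sialidases past the filter, NEU1, NEU3 and NEU4, which remove sialic acid, differed by -0.10 to 0.13.

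The 2 lower genes were B4GALT6 and NRP2. B4GALT6, a galactosyltransferase that makes lactosylceramide, the precursor of gangliosides, read 6.19 on the NCI-H727-labelled DAXX-KD array against 8.09 on its control, and 8.10 against 8.78 in the QGP1-labelled line, differences of -1.90 and -0.68. A second B4GALT6 probe set differed by -1.61 and -0.65, while the 2 others differed by -0.16 and 0.13 in the NCI-H727-labelled line. NRP2, a semaphorin co-receptor that can carry polysialic acid, read 6.48 against 7.49 in the NCI-H727-labelled line and 5.17 against 5.70 in the QGP1-labelled line. Its 11 probe sets differed by -1.53 to 0.40 in the NCI-H727-labelled line, so the direction depends on the probe set.

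**Figure D4:**
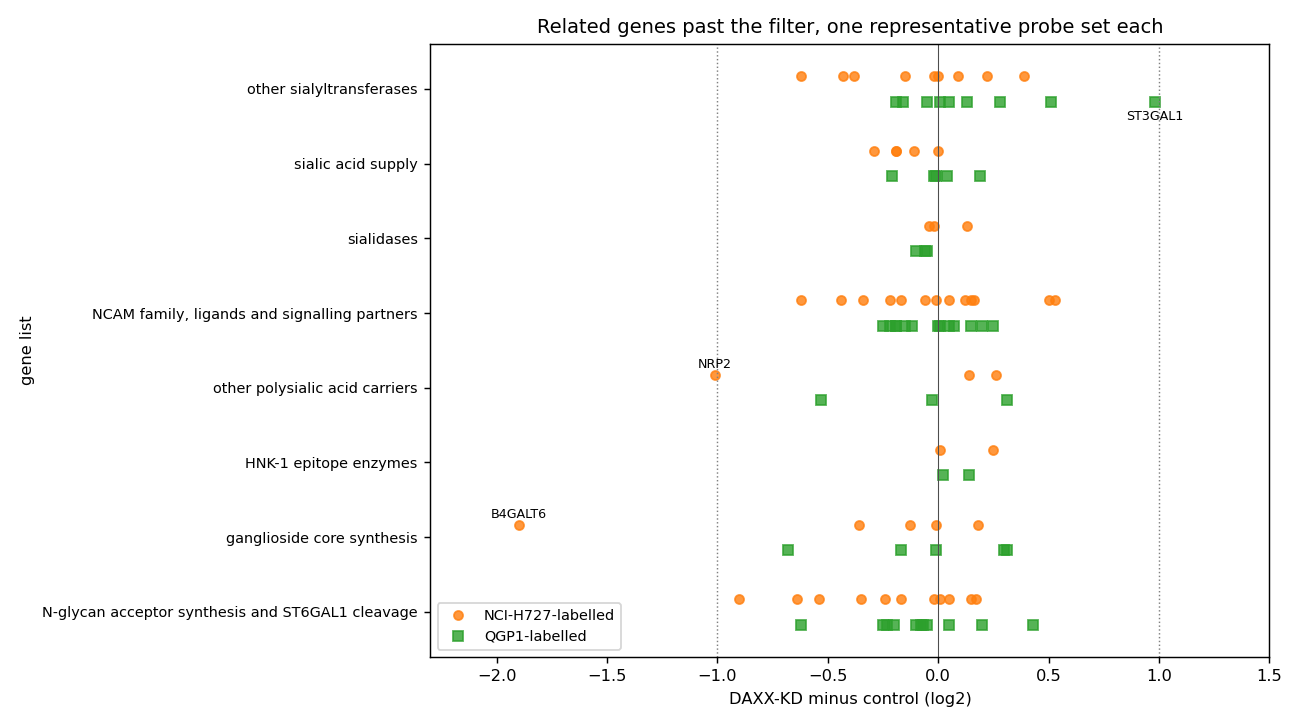
DAXX-KD minus control (log2, horizontal axis) of the 51 related genes past the filter, by list (vertical axis), in the NCI-H727-labelled line (circles) and the QGP1-labelled line (squares), 1 representative probe set a gene; dotted lines mark 2-fold. B4GALT6 at -1.90 and NRP2 at -1.01 in the NCI-H727-labelled line are past the lower line, and no gene is past the upper one.

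Some related genes also differed between the lines, in numbers near those of all genes. Between controls 7 of the 51 were 2-fold or more higher in the NCI-H727-labelled line and 3 lower, where 11.3% and 10.6% of all genes were. Between DAXX-KD arrays 5 were higher and 7 lower, where 10.5% and 13.4% of all genes were. At these shares the counts and their directions are no result about the lists. GAP43, the growth cone protein that acts downstream of NCAM1, read 3.99 and 3.47 on the NCI-H727-labelled DAXX-KD and control arrays, against 11.54 and 11.66 on the QGP1-labelled ones. L1CAM, an adhesion molecule that can bind NCAM1, read 4.88 and 4.74 against 8.28 and 8.23, though its second probe set differed by 0.04 between controls. FYN, a kinase of NCAM1 signalling, was lower too, by -1.80. These 3 were the lower ones between controls. The lower ones between DAXX-KD arrays were these 3, B4GALT6 (-1.91), the branching enzyme MGAT5 (-1.62), the sialyltransferase ST6GALNAC4 (-1.17) and B3GAT1 (-1.08), which makes the HNK-1 epitope. The second MGAT5 probe set differed by -0.10 and the 3 others of ST6GALNAC4 by -0.81 to 0.04.

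Among the other sialyltransferases 2 of the 9 past the filter were 2-fold or more higher in the NCI-H727-labelled control and 0 lower. ST3GAL1, which sialylates O-glycans, read 8.70 and 8.32 in the NCI-H727-labelled DAXX-KD and control arrays, against 6.14 and 5.16, and ST3GAL6 differed by 2.14 between controls. The 5 genes past 2-fold higher outside that list were BACE1, B4GALT1, NRP2, CNTN1 and PRNP. BACE1, a protease known to cleave ST6GAL1, differed by 2.70, with its 4 probe sets between 2.33 and 2.70. B4GALT1, which builds the galactose end that ST6GAL1 caps, differed by 1.03 at its brightest probe set, by -0.09 at another past the filter and by -0.74 to 0.79 at the dim ones. NRP2, the adhesion molecule CNTN1 and the prion protein gene PRNP differed by 1.79, 1.01 and 1.14, the last 2 not past 2-fold between DAXX-KD arrays. In the QGP1-labelled line ST3GAL1 had a knockdown difference of 0.98 at this probe set and 0.22 and 0.06 at the 2 others.

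Over the 4 arrays the genes whose profile lay nearest to that of NCAM1 were NREP, C9orf72, MYO10, KLF12 and FOXO6, at Euclidean distances of 0.0485 to 0.107 between mean-centred log2 values. Their differences between controls were -2.55 to -2.44, against -2.51 for NCAM1. Nearest to ST8SIA4 were MIEN1, MATN2, FRMD5, B4GALT6 and XRN1, at 0.151 to 0.533, with knockdown differences of -2.50 to -1.90 in the NCI-H727-labelled line and -1.15 to -0.68 in the QGP1-labelled line. B4GALT6 was already named from the ganglioside list for its knockdown difference. The profile holds that same difference, so its place here is not a second observation. A profile over 4 arrays fits many genes and says nothing of shared control.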

How the data were processed

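The authors deposited 1 table of log2 expression values made by RMA (affy 1.40.0 in R 3.0.3, per the submitters' processing notes), with 54613 probe sets and 4 arrays. RMA corrects background, equalises the distributions of the arrays and condenses the probes of a probe set, which removes any change common to most genes. The labelling used a 3' IVT kit, per the labels' protocols. Groups were taken from the titles, 1 array each.

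Gene names came from the platform annotation, updated through Entrez identifiers of the RefSeq table of GRCh38.p14 (names only). 41091 had 1 symbol; 1801 with several and 11721 with none were left out. Each gene took its brightest probe set by mean, giving 19775 genes, of which 14648 had a mean of at least 4.85, the 40th percentile. Differences were taken as DAXX-KD minus control in each line and as NCI-H727-labelled minus QGP1-labelled, with genes counted at 2-fold and no test, because each group held 1 array and the number of arrays limits the precision. Members, gene lists and comparisons were chosen with earlier results of these data known. Genes named outside the members were those of the lists past 2-fold in a comparison (at most 4 a list and comparison), the 5 of nearest profile, the sialic acid supply genes, the markers and DAXX; sialidases were named as well after their values were seen. Counting and profile ranking were tested on simulated data. Alternatives covered the probe set rule, filter, normalization, a floor and the fold. Python 3.11.15, pandas 2.3.3 and numpy 2.4.6 were used.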

Additional observations from a re-analysis of the deposited data

How the results depend on the processing

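No member's difference of 2-fold or more changed sign under the alternative settings, and 140 of 160 member values moved by less than the SD between probe sets of a gene. Under a second quantile normalization, with arrays centred on their medians, and without x_at and s_at probe sets, all values did. These settings could move little. RMA had already equalised the arrays, whose medians were 5.31 to 5.36, and most representative probe sets were neither x_at nor s_at. The 20 values that moved further were 10 with probe sets averaged and 10 with values floored at the filter level. With the probe sets of each gene averaged, or a filter at the 60th percentile, ST8SIA4 no longer passed the filter and 0 members were past 2-fold in the NCI-H727-labelled line, although the mean of its 5 probe sets still differed by -1.47. At 1.5-fold, 1 member, ST8SIA4, was lower in the QGP1-labelled line. The difference between the lines' knockdown differences of ST8SIA4, -1.62, was -0.84 with probe sets averaged and -0.54 with values floored at the filter level. The same floor gave 0.00 for ST8SIA2, -0.11 for ST8SIA1 and 0.33 for ST6GAL2, since dim values then carry no difference. With Pearson correlation in place of distance, 1 of the 5 genes nearest NCAM1 and 2 of the 5 nearest ST8SIA4 were shared. The labels give no replicate numbers. Knockdown differences were taken within each line, and a joint fit with line as a block was not run, since the members were proposed with these differences known. Dim signal limits ST8SIA2 and ST8SIA1 most, and no alternative supplies a replicate.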
